A study of Mus musculus with 24 samples.

Results

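c-MAF and its relatives bind DNA as pairs of basic leucine zipper proteins, and 6 of their genes were followed here through 4 kinds of tissue-resident mouse macrophage. They are Maf, which encodes the large factor c-MAF, Maff, Mafg and Mafk, which encode the small MAF proteins, and Bach1 and Nfe2l2, which encode BACH1 and NRF2 of the cap'n'collar (CNC) family. They were taken from the gene table by symbol, as a family chosen with earlier results of these data known, and each matched 1 gene of 55487. Bulk RNA sequencing covered 24 libraries in 8 groups of 3: macrophages of the alveoli of the lung, the Kupffer cells resident in liver, brain microglia and macrophages of the spleen, each from wild-type (WT) mice and from the genotype labelled Z165KO (KO here). The labels say nothing of what Z165KO deletes, in which cells, or of the animals' age, sex or background, while the series title names cMaf and Zeb2. RNA came from 100000 sorted macrophages a sample, no label used here gives the gate, and none says that replicates were separate animals, so p-values measure only how these samples spread, and that spread may be technical.

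Large MAF proteins carry their own activation domain, and c-MAF is known in macrophages for restraining self-renewal and for driving genes such as Il10 and the C1q chains. Small MAF proteins lack an activation domain and act through their partners. With NRF2 they activate antioxidant and NADPH-producing genes at antioxidant response elements, and with BACH1 they repress heme and iron genes at related elements until heme releases BACH1 from DNA. NRF2 itself is held down by KEAP1, an adaptor of a ubiquitin ligase, and the autophagy receptor p62 (Sqstm1) competes for KEAP1.

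The genes lie apart on the mm10 genome (GENCODE annotation, 1-based coordinates). Maf is at chr8:115682942-115707794 on the minus strand, Maff at chr15:79346621-79359076 on the plus strand, Mafg at chr11:120625117-120633600 on the minus strand and Mafk at chr5:139791513-139802653 on the plus strand. Bach1 is at chr16:87698945-87733346 on the plus strand and Nfe2l2 at chr2:75675513-75704641 on the minus strand. No source used here says whether counting used strand. Mafg shares 124 bases of its span, with exons of both genes, with Sirt7 on the same strand, and Sirt7 reached 195 CPM (counts scaled to the library total), so reads in that stretch may have been assigned to either. Mafk shares 169 bases with Tmem184a on the other strand, which stayed at or below 4.24 CPM, and the antisense gene Gm15655 over Maf had 0 counts in all 24 libraries.

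RefSeq promoter windows of GRCm38.p6, running 250 bases before to 50 after each start, were matched for 5 of the 6 genes (7 windows, 3 of them for Maff). Maf had no entry. The windows of Nfe2l2, of Mafk and the first of Maff are printed because the levels of these 3 genes tended to deviate together from library to library, though no pair passed correction, as described further on. The second of Maff is printed because it holds TGACGTCA, the 8-base core of the longer palindromic element that MAF dimers bind; the flanks of that element were not searched. Each is written 5′ to 3′ on its gene's strand. Capitals mark the antioxidant response element core TGACNNNGC, read on either strand, in all but the last, which has TGACGTCA in capitals, and in Nfe2l2 they also take in an adjoining CAGGTG, the E-box that ZEB proteins bind, read on the other strand.
Nfe2l2, chr2:75704614-75704913: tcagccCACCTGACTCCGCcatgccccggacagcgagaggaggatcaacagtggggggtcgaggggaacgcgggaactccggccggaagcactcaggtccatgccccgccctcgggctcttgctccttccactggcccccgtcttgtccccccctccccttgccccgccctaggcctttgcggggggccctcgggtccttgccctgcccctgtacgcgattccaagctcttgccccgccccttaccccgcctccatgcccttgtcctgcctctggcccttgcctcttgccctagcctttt
Mafk, chr5:139791286-139791585: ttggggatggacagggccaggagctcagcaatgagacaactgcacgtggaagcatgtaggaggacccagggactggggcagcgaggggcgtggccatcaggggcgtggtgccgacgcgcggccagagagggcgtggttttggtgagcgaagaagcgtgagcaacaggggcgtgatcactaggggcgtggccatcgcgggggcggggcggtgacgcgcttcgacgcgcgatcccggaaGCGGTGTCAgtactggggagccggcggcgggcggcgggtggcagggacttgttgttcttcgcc
Maff, first window, chr15:79346371-79346670: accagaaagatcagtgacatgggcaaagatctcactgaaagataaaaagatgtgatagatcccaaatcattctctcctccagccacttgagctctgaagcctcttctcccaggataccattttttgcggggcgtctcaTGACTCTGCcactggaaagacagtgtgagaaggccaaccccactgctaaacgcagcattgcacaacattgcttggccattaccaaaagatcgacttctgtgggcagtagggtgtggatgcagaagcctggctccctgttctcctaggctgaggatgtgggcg
Maff, second window, chr15:79347270-79347569: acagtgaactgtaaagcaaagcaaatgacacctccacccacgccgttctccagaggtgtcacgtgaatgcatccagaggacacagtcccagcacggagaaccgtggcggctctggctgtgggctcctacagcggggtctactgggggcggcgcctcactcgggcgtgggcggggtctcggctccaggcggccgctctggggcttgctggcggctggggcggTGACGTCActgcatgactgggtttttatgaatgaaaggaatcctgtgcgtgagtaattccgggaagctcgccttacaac
Searched on both strands, the antioxidant core stood in 4 of the 5 genes, starting at −240 in Nfe2l2, −222 in Mafg, −13 in Mafk and −112 in Maff, and in no window of Bach1. It was found in 12.4% of all 32851 promoter windows of that length, beside 4 of these 7 windows. The Mafg window is not printed, and Mafg deviated with Nfe2l2 only weakly (r = 0.17). With Mafk it deviated at r = 0.40 (adjusted p = 0.0661, permutation within groups), a smaller p than that of Maff and Mafk (0.134). The pairs therefore do not single out the genes whose windows are printed, and a link between the motif and the deviations was not tested. The palindrome TGACGTCA stood in 1 of the 5 genes (1.79% of all windows), the related core TGANTCA in none of them (7.81%) and CAGGTG in Nfe2l2 and the third window of Maff (20.2%). In Nfe2l2 the E-box overlaps the antioxidant core by 2 bases. A match describes letters in these windows and not bound protein.

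Before the values, the libraries themselves: totals ran from 50449347 to 65981787 counts, and no replicate pair agreed within sampling noise (smallest chi-square per degree of freedom 32.7). The 12 alveolar markers summed to 25691 to 36488 CPM in alveolar libraries and to at most 1385 CPM in any other, and the 12 microglial markers to 40138 to 46769 CPM in microglia and at most 1419 CPM in any other. Kupffer and splenic libraries were less far apart, with the 12 Kupffer markers at 22076 to 31358 CPM in Kupffer cells and up to 8309 CPM in spleen, and the 12 splenic markers at 24329 to 28497 CPM in spleen and up to 14064 CPM in Kupffer cells. Both lists hold Slc40a1, which is abundant in both types (levels given with the pathway genes further on). Part of each sum in the other type therefore comes from that shared gene. Zeb2, named in the series title, ran from 126 to 142 CPM in alveolar KO libraries and from 190 to 297 CPM in alveolar WT ones, a log2 difference of −0.89 ± 0.19 (SE, adjusted p = 0.116, edgeR's quasi-likelihood test; 0.000513 by DESeq2 and 0.0408 with all 24 libraries), and from 171 to 334 CPM in the other 18 libraries. It does not check the KO label there, since the allele is not described. All 6 genes passed the low-count filter in every comparison.

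**Figure D1:**
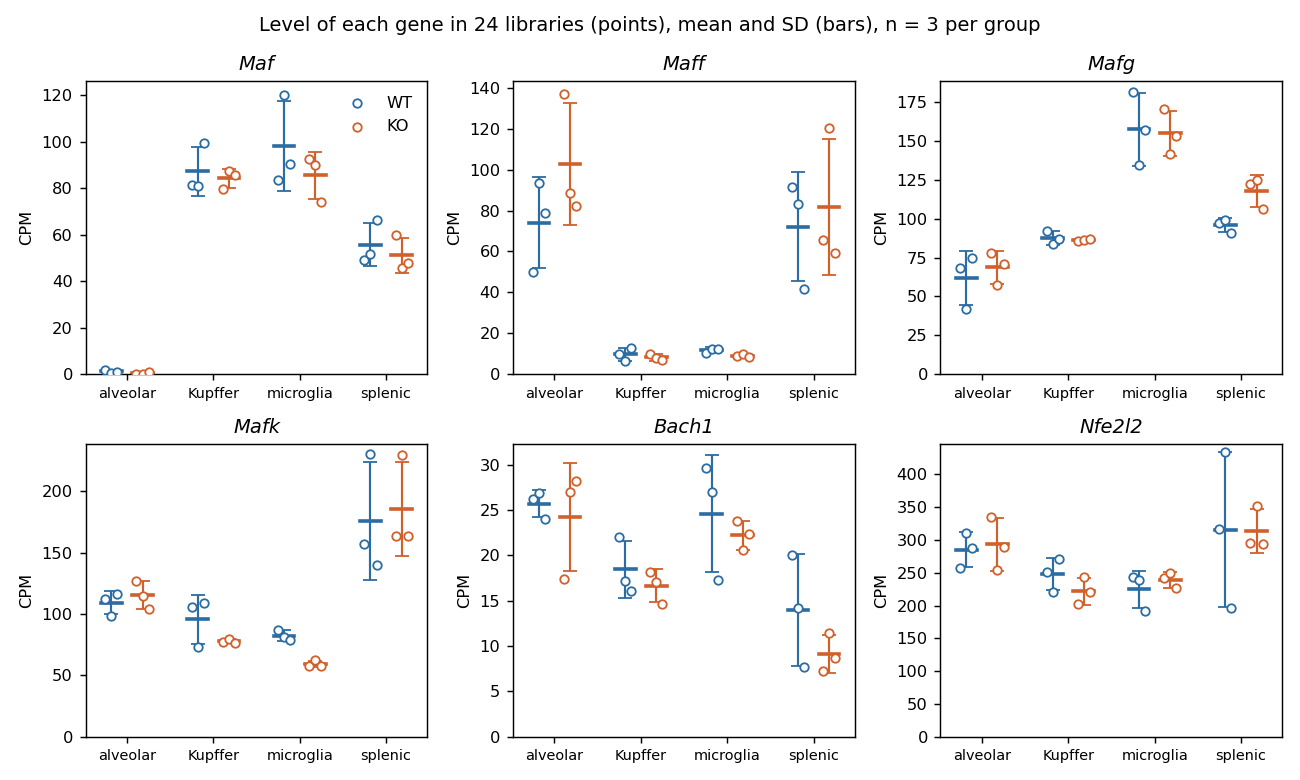
CPM of each gene (y axis, linear, from 0) in alveolar, Kupffer, microglial and splenic libraries (x axis). Circles are libraries, bars the mean and SD of 3; blue is WT and orange KO. Maf sits near 0 in all 6 alveolar libraries, and Maff is high in alveolar and splenic libraries of both genotypes.

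Maf was near 0 in alveolar macrophages and well detected in the other types. WT alveolar libraries held 1.86, 0.66 and 1.09 CPM (109, 40 and 59 counts), against 81.4, 81.0 and 99.4 CPM in Kupffer cells, 83.7, 120 and 90.6 CPM in microglia and 49.0, 51.9 and 66.2 CPM in splenic macrophages. No alveolar library came within reach of the others. Over the 12 WT libraries the 4 types differed (adjusted p = 6.03e-07, edgeR's F test), as did 52.3% of the 21679 genes tested, so a difference between types is the common case. Alveolar Maf was lower by −6.07 ± 0.34 log2 (SE) than Kupffer, −6.40 ± 0.35 than microglial and −5.63 ± 0.34 than splenic Maf (adjusted p = 5.69e-07, 1.58e-07 and 6.33e-07), in contrasts that called 28.0%, 39.8% and 26.9% of all genes. In bulk RNA, fewer cells with a transcript and less of it per cell cannot be told apart. Microglia and Kupffer cells did not differ beyond their spread (−0.34, 95% interval −0.93 to 0.26 for Kupffer minus microglia), nor did Kupffer and splenic cells (0.43, −0.16 to 1.03). Microglia stood above splenic macrophages (0.77 ± 0.27, adjusted p = 0.0473, 34.9% of genes called), a call that was lost without any of 9 of the 12 libraries (adjusted p up to 0.15, without splenic WT replicate 1), with all 24 libraries (0.101) and with the replicate number as a block (0.0725).

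The genes whose levels followed Maf most closely over the 24 libraries were Aif1, a microglia and macrophage actin-binding protein (Pearson r = 0.991), and C1qb, a chain of complement C1q (0.990), among 10681 genes of at least 5 CPM. These r values describe log2 CPM and rest mostly on the gap between the 6 alveolar libraries and the other 18. Among 20 genes associated with c-MAF in macrophages, all 20 differed between WT types, where 52.3% of all 21679 genes tested did. C1qb, 1 of the 20, stood at 42.6 CPM in alveolar libraries against 4626, 6353 and 3585 CPM. The highest group was Kupffer for 10 of the 20 genes, microglia for 4, spleen for 4 and alveolar for 2, so the list as a whole did not share 1 order.

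The small MAF genes parted by cell type, each with its own order. Maff, an inducible small MAF, held 50.1, 93.6 and 78.6 CPM in WT alveolar libraries and 91.3, 83.3 and 41.6 CPM in splenic ones. Kupffer cells had 9.79, 6.62 and 12.8 CPM and microglia 10.1, 12.4 and 12.5 CPM, below every alveolar and splenic library. Alveolar and splenic Maff differed by −0.03 (95% interval −0.75 to 0.69). Alveolar Maff exceeded Kupffer Maff by 3.06 ± 0.35 log2 (adjusted p = 7.7e-05) and microglial Maff by 2.62 ± 0.35 (0.000127). Splenic Maff exceeded them by a like amount (3.09 ± 0.35 and 2.65 ± 0.35, adjusted p = 0.000189 and 0.000147), and Kupffer cells and microglia did not differ beyond their spread (−0.44, −1.16 to 0.29). The splenic value varied most, and the lowest splenic WT library, replicate 3, also held the most erythroid marker RNA of the WT spleens (22020 against 7351 and 5606 CPM); its part in the result was not tested.

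Mafg, a more constant small MAF in most tissues, was highest in microglia at 182, 135 and 157 CPM. It stood at 97.3, 99.5 and 90.7 CPM in spleen, 92.1, 83.6 and 86.7 CPM in Kupffer cells and 68.2, 42.2 and 74.9 CPM in alveolar macrophages. The microglial libraries lay above all others. Microglial Mafg exceeded Kupffer Mafg by 1.03 ± 0.19 log2 (adjusted p = 0.00157, 32.4% of genes called), alveolar by 1.42 ± 0.19 (0.000129) and splenic by 0.69 ± 0.19 (0.0142), the last lost without microglia WT replicate 1 (0.0642), splenic WT replicate 1 (0.051) or splenic WT replicate 3 (0.0533). Spleen also exceeded alveolar macrophages (0.73 ± 0.19, adjusted p = 0.0133). The neighbours spleen and Kupffer (0.34, 95% interval −0.07 to 0.75) and Kupffer and alveolar (0.39, −0.02 to 0.80) did not differ beyond their spread. Microglia also led for the summed stress and immediate early genes, at 71026 to 78158 CPM in WT against 12907 to 49187 CPM in the other WT types, a list that holds Rhob, the second closest gene to Mafg (r = 0.934, after Dusp6, a MAP kinase phosphatase, at 0.947). Whether tissue handling contributed to the level of Mafg was not tested.

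Mafk, the third small MAF, was highest in spleen at 158, 230 and 140 CPM. Alveolar libraries held 112, 98.7 and 117 CPM, Kupffer libraries 106, 73.1 and 109 CPM and microglia 87.2, 81.0 and 78.6 CPM. Every splenic library lay above every other. Splenic Mafk exceeded Kupffer Mafk by 1.09 ± 0.20 log2 (adjusted p = 0.00379, 16.4% of genes called), microglial by 1.13 ± 0.20 (0.00128) and alveolar by 0.78 ± 0.20 (0.0142, lost without splenic WT replicate 2 at 0.0581 or alveolar WT replicate 2 at 0.0564). The other 3 types were not told apart, with differences from 0.04 to 0.35. The gene closest to Mafk over the 24 libraries was Sqstm1 (r = 0.949), which encodes p62 and stood at 2142 CPM in spleen, 1154 in alveolar macrophages, 637 in Kupffer cells and 425 in microglia.

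**Figure D2:**
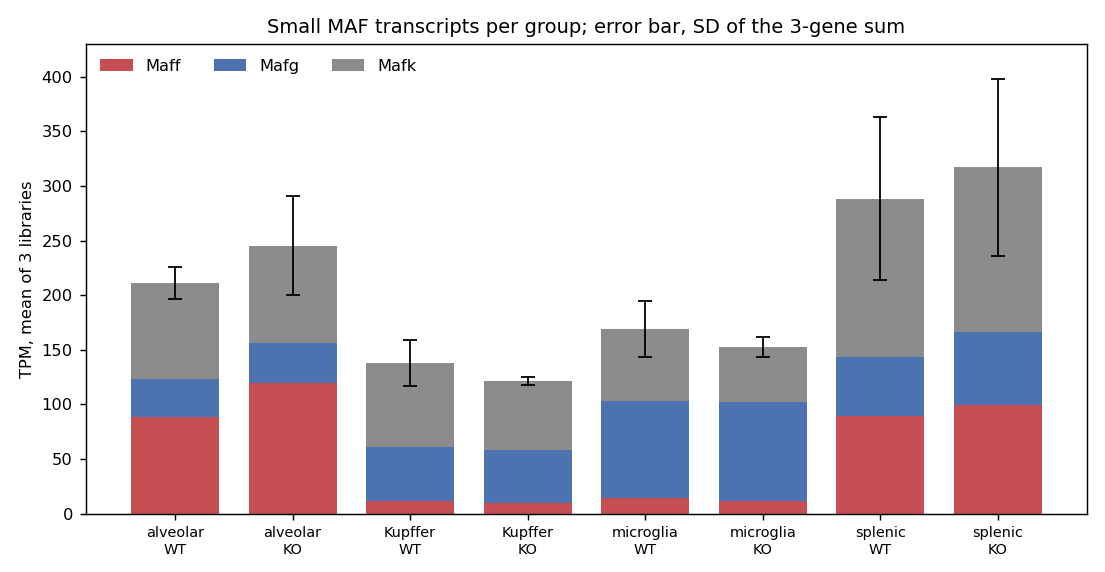
TPM (abundance scaled by transcript length and library, y axis, linear, from 0) of Maff, Mafg and Mafk stacked for each cell type and genotype (x axis), as means of 3 libraries; error bars are the SD of the 3-gene sum. Maff takes 41.9% of the alveolar WT sum and 8.4% of the Kupffer WT sum, and Mafg takes 52.2% in microglia.

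Per length, in TPM, the pool of small MAF transcripts differed in size and in makeup. Its sum was 288 ± 74.5 TPM in WT spleen (SD, n = 3), 211 ± 14.4 in alveolar macrophages, 169 ± 25.8 in microglia and 138 ± 21.0 in Kupffer cells. Maff made up 41.9% ± 10.2 of it in alveolar macrophages and 30.3% ± 7.2 in spleen, but 8.4% ± 1.6 in Kupffer cells and 8.5% ± 1.6 in microglia. Mafg made up 52.2% ± 3.4 in microglia, 36% ± 4.7 in Kupffer cells, 19.6% ± 3.8 in spleen and 16.4% ± 4.9 in alveolar macrophages. Mafk held the largest share in Kupffer cells (55.6% ± 3.3) and spleen (50.1% ± 5.8) and shared the lead with Maff in alveolar macrophages (41.7% ± 5.6), where the ranges overlapped.

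Nfe2l2 was the most abundant of the 6 by TPM in each type, and its WT group means ran from 225 CPM in microglia to 316 CPM in spleen. WT libraries held 258, 311 and 288 CPM in alveolar macrophages, 252, 221 and 271 CPM in Kupffer cells, 243, 239 and 191 CPM in microglia, and 317, 434 and 197 CPM in spleen. The splenic libraries spanned both the highest and nearly the lowest value of the 12. The F test over types did not call it (adjusted p = 0.171), and no pair of types was called. Without splenic WT replicate 3 it was called (adjusted p = 0.0184), with spleen above Kupffer cells and microglia, and with all 24 libraries spleen was called above microglia (0.0451). The genes closest to Nfe2l2, Bach1 and Maff over the 24 libraries were Zbtb21 (r = 0.831), Naa20 (0.848) and Bzw2 (0.967). By TPM Nfe2l2 stood at 235 ± 14.8 in alveolar macrophages, 205 ± 18.9 in Kupffer cells, 185 ± 22.8 in microglia and 268 ± 108 in spleen.

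Bach1 was at the low end. WT libraries held 26.2, 26.9 and 24 CPM in alveolar macrophages, 29.6, 27.0 and 17.3 in microglia, 22.1, 17.2 and 16.1 in Kupffer cells, and 20.1, 14.3 and 7.64 in spleen. The types overlapped except that each alveolar library lay above each Kupffer and splenic one. The F test gave an adjusted p of 0.0904, and the largest pairwise differences were alveolar minus splenic (0.81 ± 0.31, adjusted p = 0.0798) and microglial minus splenic (0.80 ± 0.31, 0.0693). The call turned on single libraries and on the tool, since adjusted p over the types was 0.0382 without splenic WT replicate 1, just under 0.05 with DESeq2 and 0.0349 when all 24 libraries shared 1 estimate of spread. The ratio of Nfe2l2 to Bach1 in TPM was 39.1 ± 12.2 in WT spleen and 57.0 ± 8.0 in KO spleen, against group means of 15.3 to 22.3 in the other 6 groups. Single libraries overlapped, with splenic WT replicate 1 (25.7) below Kupffer WT replicate 3 (27.4) and alveolar KO replicate 1 (31.5). The ratio was not tested between types or genotypes.

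Within each type the order of the 6 genes by TPM was mostly clear, with 53 of 60 gene pairs in non-overlapping WT ranges. Alveolar macrophages ran Nfe2l2 (235 TPM), Maff (88.8), Mafk (87.8), Mafg (34.5), Bach1 (13) and Maf (0.463). Microglia ran Nfe2l2 (185), Mafg (88.7), Mafk (66.1), Maf (36.9), Maff (14.1) and Bach1 (12.4). Kupffer cells placed Mafk (77.0) ahead of Mafg (48.9), Maf (33.1), Maff (11.7) and Bach1 (9.38), and spleen placed Mafk (145) ahead of Maff (89.2), Mafg (54.5), Maf (21.5) and Bach1 (7.25). Maf therefore ranked above Maff in Kupffer cells and microglia and below it in the other types.

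**Figure D3:**
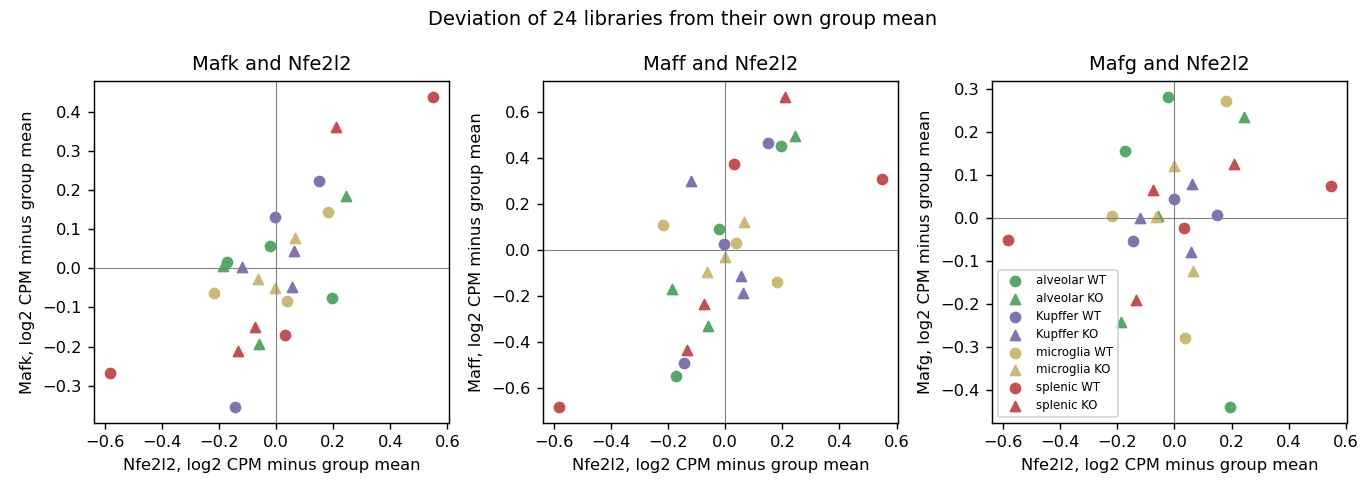
Deviation of each library's log2 CPM from the mean of its own group, for Nfe2l2 (x axis) against Mafk, Maff and Mafg (y axes). Points are the 24 libraries, circles WT and triangles KO, coloured by cell type; splenic WT replicates 2 and 3 are the farthest to the right and left.

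With cell type and genotype removed by subtracting group means, the levels of Nfe2l2, Mafk and Maff tended to deviate together over the 24 libraries, without passing correction for the number of pairs. Mafk and Nfe2l2 gave Pearson r = 0.74 and Spearman rho = 0.63 (permutation within groups, two-sided p = 0.0043 and 0.0142). Over the 21 pairs of the 6 genes and the summed stress list, the Benjamini-Hochberg adjusted values were 0.0592 and 0.0994. Maff and Nfe2l2 gave r = 0.69 and rho = 0.68 (permutation p = 0.00564 and 0.00691, adjusted 0.0592 and 0.0726). Without splenic WT replicates 2 and 3, the farthest in Nfe2l2, r was 0.60 for Mafk and 0.66 for Maff. No pair passed the adjusted threshold of 0.05. Mafg and Nfe2l2 gave r = 0.17 and rho = 0.26 (permutation p = 0.42 and 0.314, adjusted 0.63 and 0.722). Mafg and Mafk gave r = 0.40 and rho = 0.57 (permutation p = 0.00945 and 0.00433, adjusted 0.0661 and 0.0726), and Maff and Mafk r = 0.65 and rho = 0.56 (permutation p = 0.0285 and 0.0452, adjusted 0.134 and 0.237). The summed stress genes deviated with Maff at r = 0.50 and rho = 0.34 (permutation p = 0.0735 and 0.22, adjusted 0.257 and 0.666), which was 0.33 without alveolar WT replicates 1 and 2, and with the other 5 genes at r from −0.35 (Mafg) to 0.22 (Nfe2l2). Maf and Maff deviated in opposite directions (r = −0.51 and rho = −0.42, permutation p = 0.0319 and 0.112, adjusted 0.134 and 0.472).

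The genotype comparison asked whether these factors changed in KO macrophages, and no member was called in any of the 4 types. The share of all genes called was 0.317% of 17369 in alveolar macrophages, 0.0629% of 19085 in Kupffer cells, 0.0% of 17880 in microglia and 0.747% of 17808 in spleen, so few genes of any kind were called. In microglia 0 genes were called by edgeR, with 794 at an unadjusted p under 0.05, and DESeq2 called 93. Looser measures give larger backgrounds. At an unadjusted p under 0.05 edgeR held 12.5%, 6.94%, 4.44% and 11.7% of all genes in alveolar, Kupffer, microglial and splenic cells, DESeq2 called 5.32%, 2.17%, 0.521% and 5.08% of the genes it tested, and WT and KO ranges did not overlap for 19.4%, 12.9%, 11% and 20%. At an unadjusted p under 0.05 edgeR held 2 of the 24 member comparisons, Mafk in microglia and Mafg in spleen, and the WT and KO ranges did not overlap in 3 of the 24, these and Maff in microglia, both counts being shares within the range of those of all genes.

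**Figure D4:**
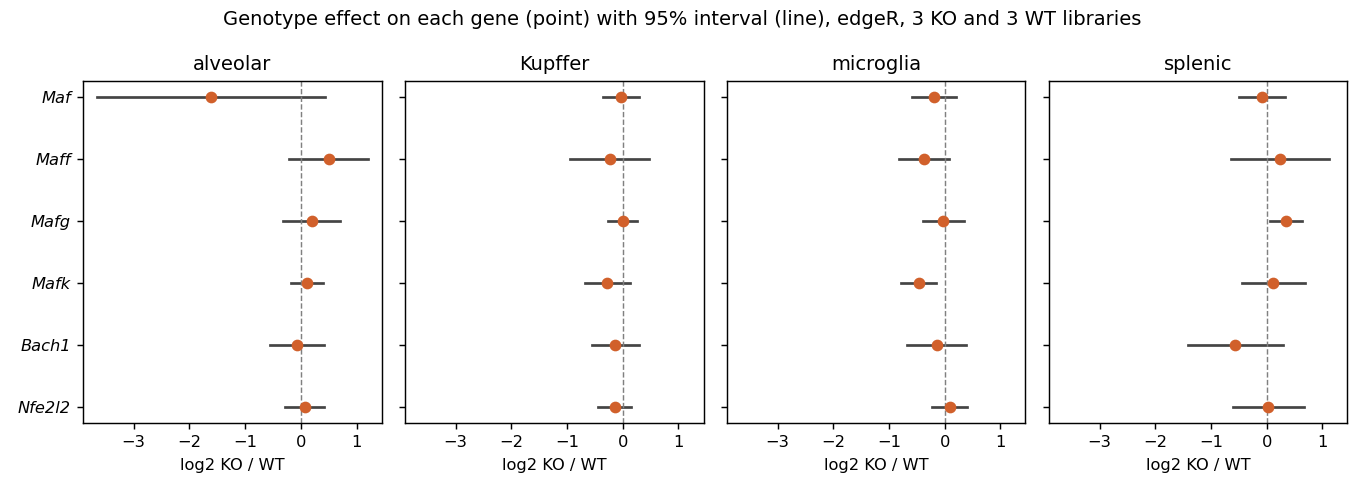
Log2 ratio of KO to WT (x axis, 0 dashed) for each of the 6 genes (y axis) in each cell type, with points for the edgeR estimate and lines for its 95% interval from 3 KO and 3 WT libraries. The alveolar interval of Maf, −3.66 to 0.43, is the widest, and the intervals of Mafk in microglia and Mafg in spleen lie on 1 side of 0.

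Alveolar Maf was 0.10, 0.23 and 0.83 CPM in KO (6, 14 and 47 counts) beside the 1.86, 0.66 and 1.09 CPM of WT. The KO replicate 3 lay inside the WT range and the other KO libraries below it. The difference was −1.61 ± 0.87 log2 (adjusted p = 0.522, edgeR). It widened to −2.79 without KO replicate 3, with no alternative calling it in alveolar libraries alone. The same library changed the calls in the tests over all 24, and in the contrast of alveolar against the other types the tool did too. Maf was not called for a genotype effect that differs between types (adjusted p = 0.41), for alveolar against the mean of the other types (−1.52 ± 0.48, 0.17) or for the mean effect (−0.48 ± 0.19, 0.37), tests that called 0.524%, 0.861% and 0.624% of 24030 genes. Without alveolar KO replicate 3 all 3 tests called it (adjusted p = 0.0173, 0.00224 and 0.013), and DESeq2 called the second with all libraries (0.0278). These were its only calls among 28 alternative settings of each test.

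Markers of interstitial and border macrophages, which include Lyve1, Cd163 and the C1q genes, were also lower by estimate in KO alveolar libraries. The 13 markers summed to 1723, 1425 and 1404 CPM in WT and 1103, 1129 and 1266 CPM in KO, with KO replicate 3 the highest of the KO libraries. All 13 were lower in KO by estimate, 0 of them were called, and a single marker was at 0, in KO replicate 1. Of the 20 c-MAF-associated genes, which share 10 members with that list, 19 were lower in alveolar KO with a median of −0.88 log2 against −0.01 for all genes, and 0 were called (7 at an unadjusted p under 0.05, where 12.5% of all genes were, and 1 by DESeq2, which called 5.32% of all genes). F13a1, the A chain of coagulation factor XIII, was lowest by adjusted p (28.3 to 11.1 CPM, −1.31 log2, adjusted p = 0.16). The part of a few interstitial macrophages in the alveolar Maf value was not tested. In the other types the same list had medians of −0.08 in Kupffer cells, −0.0036 in microglia and 0.07 in spleen.

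In the other types the difference in Maf did not pass the test, and its intervals were narrower. KO Kupffer cells held 79.7, 87.4 and 85.9 CPM (difference −0.03, 95% interval −0.35 to 0.29). KO microglia held 92.8, 89.96 and 74.0 CPM (−0.19, −0.58 to 0.20). KO splenic macrophages held 59.8, 45.9 and 47.7 CPM (−0.09, −0.50 to 0.33). In each type the KO libraries overlapped the WT ones.

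Microglial Mafk was 58.1, 62.4 and 57.6 CPM in KO, all under the 78.6 to 87.2 CPM of WT. The difference was −0.47 ± 0.13 log2 (unadjusted p = 0.00817, adjusted p = 0.881, edgeR; 0.0645 by DESeq2), and the mean over 4 types was −0.12 ± 0.09. Microglial Maff was 8.96, 9.79 and 8.36 CPM, under its WT range of 10.1 to 12.5 CPM (−0.37 ± 0.19, adjusted p = 0.987). The summed stress genes of these libraries were 70232 to 73517 CPM in KO and 71026 to 78158 CPM in WT. Such a sum weights genes by abundance. Taken singly, the stress genes had a median below 0 in KO microglia. A larger share of them than of all genes was at an unadjusted p under 0.05, as given with the gene lists further on. The part of the stress genes in the Mafk and Maff differences was not tested.

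Splenic Mafg was 122, 125 and 106 CPM in KO, above the 90.7 to 99.5 CPM of WT. The difference was 0.34 ± 0.12 log2 (unadjusted p = 0.0257, adjusted p = 0.34). The summed stress genes were likewise higher in every KO spleen, at 54488 to 72509 CPM against 41010 to 49187 CPM, and neutrophil markers were at 643 to 856 CPM against 169 to 249.5 CPM. Neither was tested for its part in the Mafg value. Splenic Bach1 was 7.29, 11.4 and 8.71 CPM in KO, inside or just below the WT range (−0.56 ± 0.36, adjusted p = 0.619).

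Alveolar Maff was 137, 88.5 and 82.4 CPM in KO and overlapped WT (0.50 ± 0.30, adjusted p = 0.578), KO replicate 1 being the only library above the WT range. Splenic Maff was 65.7, 120 and 59.3 CPM in KO (0.24 ± 0.37, adjusted p = 0.856) and Kupffer Maff 9.87, 7.88 and 6.77 CPM (−0.24 ± 0.30, adjusted p = 0.943). Nfe2l2 differed by between −0.14 and 0.09 log2 over the 4 types. Its 95% interval ran from −0.29 to 0.42 in alveolar macrophages, −0.44 to 0.15 in Kupffer cells, −0.22 to 0.41 in microglia and −0.61 to 0.67 in spleen, so smaller differences could not be resolved at this replication.

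Around the 6 genes, the list of other MAF and CNC genes held 1 call. Bach2, the BACH1 relative of B cells, fell in spleen from 22.7, 26.1 and 21.0 CPM in WT to 8.74, 4.44 and 6.63 CPM in KO (−1.78 ± 0.26 log2, adjusted p = 0.0402, edgeR), 1 of 5 genes of the list tested there. In spleen edgeR called 0.747% of all genes in either direction. None of 6 fits without 1 library kept the Bach2 call (adjusted p = 0.0586 to 0.155), nor did the fit with the replicate number as a block (0.142). DESeq2 (adjusted p = 4.49e-08), the fit without the low-count filter (0.00477) and the fit with all 24 libraries (0.035) kept it. The B cell markers of the same libraries summed to 770 to 1277 CPM in WT and 50.7 to 63.8 CPM in KO, with 2 to 4 of the 12 at 0 in each KO library and none in WT, and all 12 were called lower, beside that 0.747% of all genes. Their part in the Bach2 difference was not tested. Kupffer Bach2 was 33.9, 22.2 and 19.8 CPM in WT and 12.7, 14.3 and 9.61 CPM in KO (−1.04 log2, adjusted p = 0.273; 0.00922 by DESeq2), where B cell markers summed to 480.5 to 750 CPM in WT and 70.7 to 108 CPM in KO. In microglia, with B cell sums under 65 CPM in both genotypes, Bach2 was 28.2, 36.2 and 28.2 CPM in WT and 32.3, 37.0 and 26.4 CPM in KO.

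**Figure D5:**
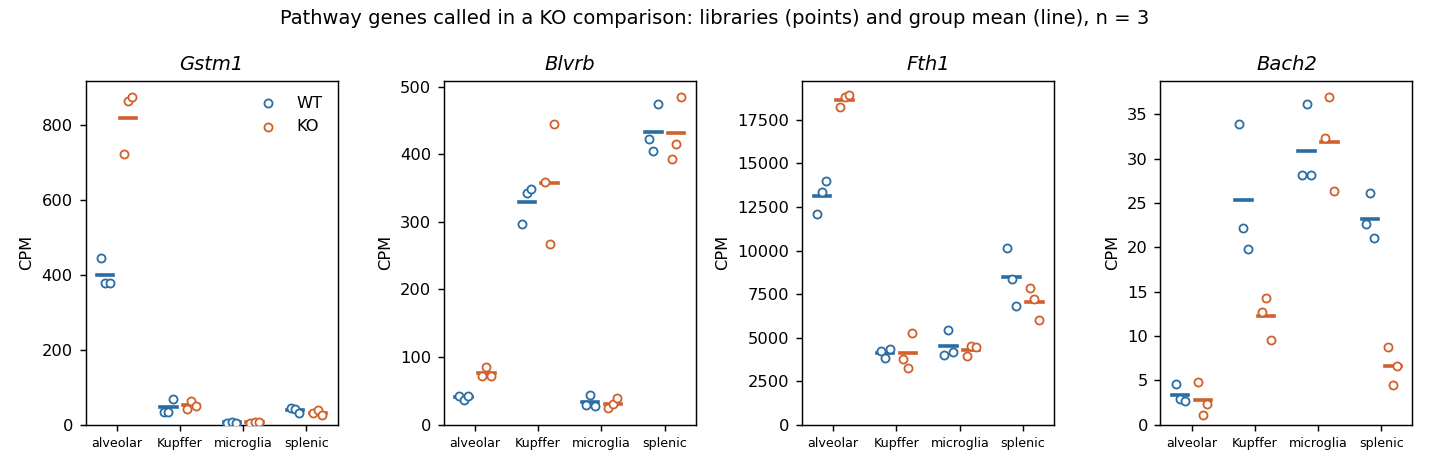
CPM (y axis, linear, from 0) of Gstm1, Blvrb, Fth1 and Bach2, the pathway genes called in a KO comparison, by cell type (x axis); circles are libraries and lines group means of 3, blue WT and orange KO. KO lies above WT for the first 3 in alveolar libraries, and below WT for Bach2 in spleen and Kupffer cells.

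The lists of NRF2 target genes and of heme and iron genes, several of which are known BACH1 targets, held 3 calls, all higher in alveolar KO. Gstm1, a glutathione S-transferase, rose from 446, 378 and 378 CPM in WT to 723, 863 and 874 CPM in KO (1.06 ± 0.11 log2, adjusted p = 0.0254), the single call among 27 NRF2 target genes tested. Blvrb, biliverdin reductase B, rose from 42.8, 37.3 and 42.7 CPM to 72.7, 85.5 and 72.4 CPM (0.94 ± 0.12, adjusted p = 0.0391). Fth1, the ferritin heavy chain, rose from 12104, 13336 and 13994 CPM to 18240, 18818 and 18947 CPM (0.53 ± 0.07, adjusted p = 0.0402), and these were the 2 calls among 11 heme and iron genes tested. The genotypes did not overlap for any of the 3, as for 19.4% of all genes there, and the background of called genes was 0.317%. The calls were thin: of 6 fits that each left out 1 alveolar library, 1 kept the call of Gstm1 (without KO replicate 1) and none kept Blvrb or Fth1 (adjusted p up to 0.152, 0.258 and 0.173). Fth1 was also not called without the low-count filter (0.15) or with all 24 libraries (0.167), and none of the 3 was called with the replicate number as a block (0.202, 0.276 and 0.202). Gstm1 and Blvrb kept their calls without the filter (adjusted p = 0.0045 and 0.0137) and with all 24 libraries (0.029 and 0.0216). DESeq2 called all 3 (adjusted p = 5.66e-16, 8.2e-10 and 5.62e-06), beside 5.32% of all genes. Neutrophil markers summed to 620 to 774 CPM in the KO and 266 to 444 CPM in the WT alveolar libraries, B cell markers to 90.2 to 117 CPM and 167 to 209.7 CPM, and stress genes to 11539 to 13002 CPM and 12907 to 36675 CPM. The part of these in the 3 results was not tested.

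The rest of those lists held no call by edgeR, while DESeq2 called 4 NRF2 targets and 5 heme and iron genes in alveolar macrophages, beside 5.32% of all genes. The heme and iron list had a median of 0.53 log2 in alveolar KO and the NRF2 target list of 0.21, against −0.01 for all genes, with 9 of 11 and 20 of 27 genes above 0. Hmox1, heme oxygenase 1, was 142, 149 and 199 CPM in WT and 247, 277 and 251 CPM in KO (0.69 ± 0.14, adjusted p = 0.113), and the heme transporter Slc48a1 was lower in KO (−0.61 ± 0.10, adjusted p = 0.0748). In spleen, Kupffer cells and microglia 0 genes of either list were called (at an unadjusted p under 0.05, 6, 4 and 0 NRF2 targets and 1, 0 and 2 heme and iron genes, beside 11.7%, 6.94% and 4.44% of all genes), and DESeq2 called 2 NRF2 targets in spleen, beside 5.08% of all genes. The NRF2 target medians there were −0.08, 0.18 and −0.04. The 14 genes of NRF2 and BACH1 turnover had 0 calls in any type by edgeR and 1 in alveolar macrophages by DESeq2, and Keap1 was 42.2 CPM in WT and 57.8 CPM in KO there (0.48 log2, adjusted p = 0.197). The 26 stress and immediate early genes had 0 calls in the 4 types (12, 6, 13 and 14 at an unadjusted p under 0.05 in alveolar, Kupffer, microglial and splenic cells, and 4, 2, 2 and 9 by DESeq2, beside 12.5%, 6.94%, 4.44% and 11.7% of all genes by the first measure and 5.32%, 2.17%, 0.521% and 5.08% by the second), with medians of −0.76, −0.49, −0.32 and 0.51.

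Between WT types most pathway genes differed. Of 27 NRF2 target genes tested 25 were called over the types, and all 12 heme and iron genes were, where 52.3% of all genes were called. The highest group was alveolar for 13 of the 27 targets, spleen for 9, Kupffer for 4 and microglia for 1. Gsr, glutathione reductase, stood at 467 CPM in alveolar macrophages, 161 in Kupffer cells, 149.9 in spleen and 24.8 in microglia (adjusted p = 2e-08), and Mgst1, a microsomal glutathione transferase, at 253, 28.8, 56.0 and 0.142 CPM in the same order. Spleen was highest for 8 of the 12 heme and iron genes, among them Spic, the factor of red pulp macrophages, at 1476 CPM against at most 137 in the other types, and Slc40a1, the iron exporter, at 5554 CPM beside 4242 in Kupffer cells. Spic, Slc40a1 and Hmox1 are also among the splenic markers, so that count is not independent of how the list was chosen. Alas1, the first enzyme of heme synthesis, ran the other way, at 597 CPM in alveolar macrophages and 55.5 to 121 CPM elsewhere. Of the 14 turnover genes 7 were called.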

How the data were processed

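The authors deposited 3 tables for the 24 libraries, of gene counts, CPM and TPM. The submitters' processing notes name mm10 as build and DRAGEN, STAR, Subread, featureCounts and Salmon as tools, without their roles. Library preparation used the SMARTer Ultra Low kit, per the labels' protocols. The deposited counts were whole numbers, and CPM recomputed from them differed from the deposited CPM by at most 4.7e-11. Of 55774 rows, 287 repeated a gene and were dropped. These repeats took 4 splenic columns of deposited TPM above their nominal total, so as deposited those columns are a signal on the TPM scale. With the repeats dropped, rescaling every column to that total moved no TPM value by more than 1.5e-11.

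Counts were tested with edgeR 4.0.16 in R 4.3.3 (TMM, filterByExpr with a minimum count of 10, two-sided quasi-likelihood tests, Benjamini-Hochberg adjusted p under 0.05), on the libraries compared or all 24, and the procedure was tested on simulated data. The simulated counts had the same spread for every gene, so they give no power or error rate for these data. Alternatives were DESeq2 1.42.0 and its size factors, no filter, all 24 libraries, a replicate block and leaving out each library. Values are means ± SD of 3 libraries, log2 differences ± SE. The exact permutation test of 3 against 3 cannot go below 0.1 and was not used. Correlations of deviations used 100000 permutations within groups. Likeness used log2 CPM with a prior count of 2. Promoter sequences came from RefSeq.

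The members and gene lists were chosen with earlier results of these data known. Named were all 6 members, Zeb2, and from each list the called genes (at most 4 in a direction) or those with the smallest adjusted p; the genes closest to a member by likeness were named too. Alveolar Hmox1 and Slc48a1, microglial Bach2 and the marker sums set beside results fall outside that rule and were chosen after their values were seen. Some results that the rule would name are not reported here.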

Additional observations from a re-analysis of the deposited data

How the results depend on the processing

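Over all alternatives 0 of the 6 genes were called for KO against WT within any type, and 4 or 5 of 6 (13 to 17 of 36 gene pairs of types) were called between WT types. Of all genes, the main test called 52.3% over the WT types and 16.4% to 39.8% in single pairs of types, so such calls were common. The count of members called over all 24 libraries moved from 0 to 1, which was Maf each time, with a range of 0 to 1 when single libraries were left out: without alveolar KO replicate 3 for the effect that differs between types, for the alveolar effect against the others and for the mean effect, and with DESeq2 (1 member) for the alveolar effect. Small differences turned sign, all of them uncalled. Mafg KO against WT in Kupffer cells became 0.0051 without the low-count filter and 0.0097 with all 24 libraries, Bach1 in WT alveolar against microglia −0.031 with DESeq2 size factors and −0.031 with DESeq2, and Nfe2l2 in WT Kupffer against microglia 0.0064 without the filter. With 1 library left out, log2 values crossed 0 for KO against WT in alveolar macrophages (Bach1 −0.16 to 0.11, Nfe2l2 −0.064 to 0.17), in Kupffer cells (Maf −0.088 to 0.078, Maff −0.45 to 0.018, Mafg −0.045 to 0.041, Bach1 −0.22 to 0.0068), in microglia (Mafg −0.14 to 0.11, Bach1 −0.34 to 0.036, Nfe2l2 −0.0056 to 0.18) and in spleen (Maf −0.22 to 0.075, Maff −0.18 to 0.45, Mafk −0.0896 to 0.38, Nfe2l2 −0.20 to 0.35). They also did for the alveolar effect against the other types (Mafg −0.091 to 0.23, Nfe2l2 −0.051 to 0.18), the mean effect (Maff −0.075 to 0.10, Nfe2l2 −0.051 to 0.092) and between WT types for Bach1 in alveolar against microglia (−0.19 to 0.20), Maff (−0.30 to 0.18) and Nfe2l2 (−0.47 to 0.094) in alveolar against splenic, Mafk (−0.055 to 0.20) and Nfe2l2 (−0.13 to 0.062) in Kupffer against microglia, and Bach1 in Kupffer against splenic (−0.084 to 0.51). The cause was not tested.

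Same-numbered WT and KO libraries of a type did not deviate together (r −0.04 to 0.04, other numbers −0.06 to 0.06, and 8 of 24 libraries correlated best with their own number), nor did same-numbered libraries of different types (r −0.03 to 0.07 over 72 pairs, other numbers −0.06 to 0.05 over 144), so the number was not taken to pair samples. With the replicate block, 0 members were called for KO against WT, 5 of 6 between WT types (Bach1 added, adjusted p = 0.0241) and the pair microglia and spleen was lost for Maf (0.0725). Over the WT types the block called 10545 of all 21679 genes tested. Calls over all genes varied more: in alveolar, Kupffer, microglial and splenic comparisons they numbered 55, 12, 0 and 133 in the main test, 0, 0, 0 and 10 with the block, 163, 76, 13 and 330 without the filter, 297, 48, 19 and 145 with all 24 libraries, and 922, 413, 93 and 903 with DESeq2. For the 3 tests over all 24 libraries DESeq2 called 945, 826 and 632 genes beside 126, 207 and 150, and the block gave 133 for the second. Depth limits only alveolar Maf, with 6 to 109 counts a library.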
